A study of Mus musculus with 6 samples.

Results

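The Nodal, Lefty and Cripto pathway genes were measured in mouse embryonic stem cells exposed for 6 h to SC1, a small molecule also known as pluripotin. The 10 genes were Nodal, Lefty1, Lefty2, Tdgf1, Gdf3, Smad3, Smad7, Skil, Acvr1b and Acvr2b. Their probes were taken by the RefSeq transcript accession given for each probe, which yielded 15 of the 55681 probes that are not controls, for 10 of 37074 gene names. After SC1, Nodal, Lefty1, Gdf3 and Acvr1b rose by 1.24-fold to 1.49-fold. Smad7 fell 3.73-fold, Tdgf1 fell 2.62-fold and Lefty2 fell 1.51-fold. Smad3, Skil and Acvr2b did not pass the test.

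SC1 was added at 1 µM for 6 h to 3 samples, and 3 samples received DMSO, the solvent, for 6 h. All 6 samples were J1 cells, an embryonic stem cell line of inner cell mass origin and 129S4/SvJae strain. The line had been adapted to gelatin, and every sample was in Knockout Serum Replacement medium with 1000 U/mL LIF, the cytokine that sustains self-renewal. J1 is a single line, and the labels do not state whether the replicates came from different cultures. A p-value here therefore reflects only how these 6 samples vary, and that variation may be technical. SC1 is reported to inhibit ERK1 and RasGAP.

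Nodal is a secreted ligand of the TGF-beta family that signals through type I and type II activin receptor kinases together with the co-receptor Cripto, the product of Tdgf1. The receptors phosphorylate SMAD2 and SMAD3, which enter the nucleus with SMAD4 and, at many targets, with FOXH1. Nodal, Lefty1, Lefty2 and Smad7 are themselves known targets of the pathway, and the Lefty proteins and SMAD7 feed back to inhibit it. In embryonic stem cells the pathway is active without added ligand and is known to sustain Nodal and Lefty expression.

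The arrays were close in the share of probes well above background, but their signal differed by group. The 75th percentile of processed signal was 443.3 to 493.3 on the SC1 arrays and 532.2 to 539 on the DMSO arrays. Between 63.2% and 65.1% of probes were well above background on the SC1 arrays, and between 65.02% and 65.59% on the DMSO arrays, and no spot for a gene was saturated. All 8 embryonic stem cell markers (Pou5f1, Sox2, Nanog, Zfp42, Esrrb, Tfcp2l1, Dppa5a and Sall4) were well above background on all 6 arrays. Their summed level was 576.2 to 609 times the 75th percentile of the array on SC1 arrays and 536.5 to 559.5 on DMSO arrays. Most of that sum was Dppa5a, with a mean level of 419.2 with SC1 and 382.5 with DMSO, and Dppa5a did not pass the test. Of 8 fibroblast markers, 6 were well above background on every array, and Postn and Lum on none. The summed level was 2.33 to 2.42 with SC1 and 2.88 to 3.01 with DMSO. Of 6 tested, 3 rose (Col1a1, Col3a1 and Dcn) and 1 fell, beside 18.1% higher and 20.2% lower over all genes. The gene that fell was Thy1, with a mean level of 0.677 with SC1 and 1.437 with DMSO, and it weighed most in the sum. Of 8 extraembryonic endoderm markers 7 were above background on every array, with a summed level of 1.12 to 1.26 with SC1 and 1.04 to 1.10 with DMSO. Of 7 tested, 3 rose and none fell, beside 18.1% higher and 20.2% lower over all genes. Among 6 mesendoderm markers, 2 were well above background on every SC1 array and 3 on every DMSO array, while Mixl1 and Cer1 were on none. The summed level was 1.16 to 1.18 with SC1 and 1.08 to 1.12 with DMSO. Of 3 tested, 1 rose and 2 fell, beside 18.1% higher and 20.2% lower over all genes. Of the 2 that fell, 1 was well above background on no SC1 array and entered the test only through the DMSO arrays. The part of these cells in the results below was not tested, and in bulk RNA fewer cells of a type and less RNA per cell cannot be told apart.

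Levels are given as multiples of the array's 75th percentile, and fold changes as log2 of SC1 over DMSO with the standard error (SE) of limma. A gene passed at a Benjamini-Hochberg adjusted p under 0.05 over all 25439 genes tested. Probes without a RefSeq symbol were grouped by accession and count among these genes. Shares over all genes are thus not shares of named genes alone. Over all genes 38.3% passed, 18.1% higher and 20.2% lower, so that 47.3% of the genes that passed were higher. That share was 57.9% with normexp background correction before the scaling. Of the 10 pathway genes 7 passed, 4 higher and 3 lower, and all 10 were among the genes tested. For 8 of the 10 there was no overlap between the SC1 and DMSO values, as for 52.2% of all genes. The median size of the log2 fold change, without its sign, was 0.45 over the 10 genes and 0.17 over all genes tested, while the signed medians were -0.02 and -0.0052.

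**Figure D1:**
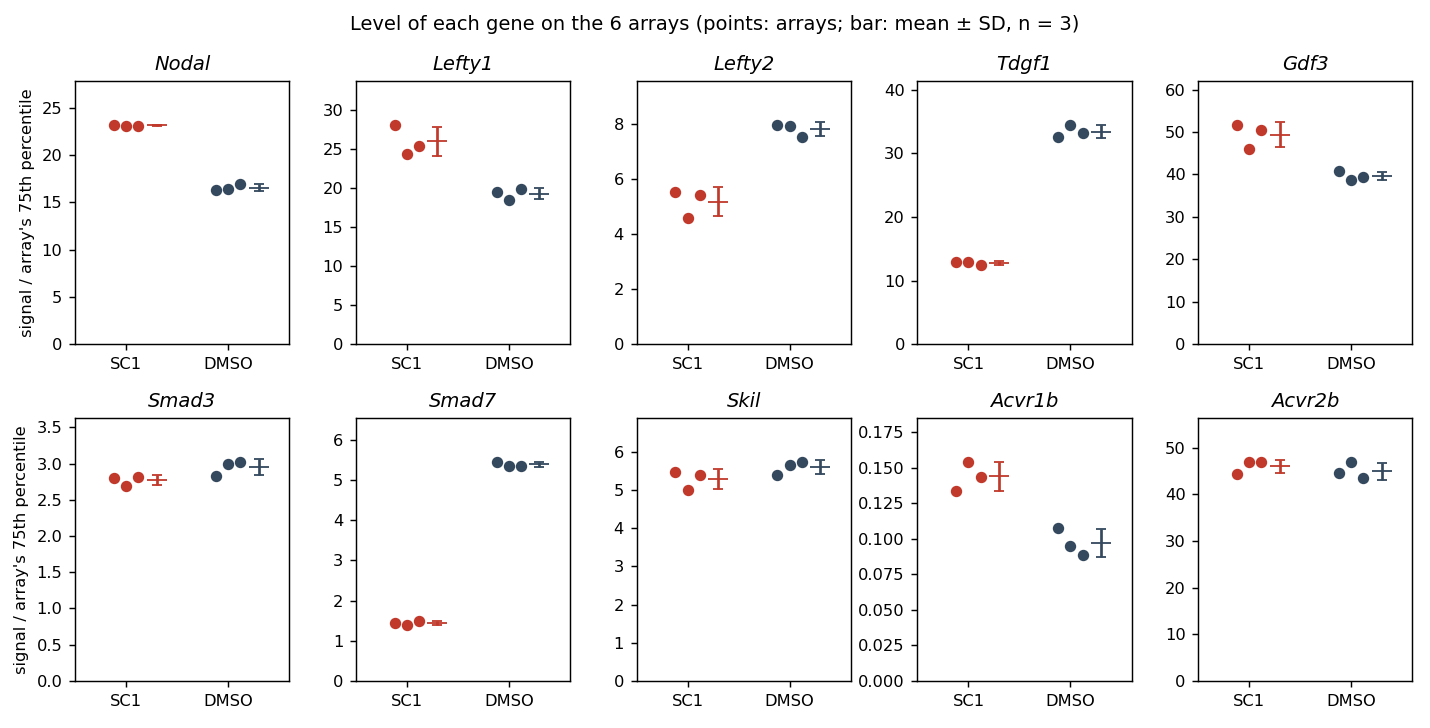
Level of each of the 10 genes on the 3 SC1 arrays (red, left) and the 3 DMSO arrays (dark, right) as a multiple of the array's 75th percentile, on axes that start at 0, with mean ± SD beside the points. The groups lie apart for 8 genes and overlap for Skil and Acvr2b, and Tdgf1 and Smad7 show the widest gaps.

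The ligand gene Nodal rose. Its level was 23.2, 23.1 and 23.1 on the SC1 arrays, against 16.3, 16.4 and 17.0 on the DMSO arrays. The SC1 arrays lay within a narrow band and all above the DMSO arrays, with a log2 fold change of 0.48 (n = 3 each, SE 0.0385, limma adjusted p = 0.000325). Even before scaling, its processed signal was 10240 to 11448.5 with SC1 and 8732 to 9072.4 with DMSO, although the 75th percentile of the SC1 arrays was lower, at 443.3 to 493.3 against 532.2 to 539 on the DMSO arrays. Nodal passed under all 23 processing alternatives.

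Gdf3 encodes a related ligand of the pluripotent epiblast that also uses Cripto. Its brighter probe gave 51.7, 46.0 and 50.4 with SC1, against 40.8, 38.8 and 39.5 with DMSO, a log2 fold change of 0.31 (SE 0.0574, limma adjusted p = 0.00775). Its dimmer probe gave 5.43, 5.71 and 5.72 with SC1, against 3.34, 3.14 and 3.15 with DMSO. Both probes were higher on every SC1 array, but the dimmer one rose more, with a log2 fold change of 0.81 (SE 0.0486, limma adjusted p = 0.000153 over all probes, of which 36.3% passed). Before scaling, the brighter probe overlapped between groups (21089.8 to 25496.6 with SC1, 20642 to 21985.7 with DMSO), while the dimmer did not (2535.3 to 2680.7 with SC1, 1670.7 to 1797.8 with DMSO). With scaling to the spike-in probes the brighter probe no longer passed (limma adjusted p = 0.261).

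Tdgf1, the gene of the co-receptor Cripto, fell on each of its 3 probes. The brightest gave 13.0, 12.9 and 12.4 on the SC1 arrays, against 32.5, 34.5 and 33.2 on the DMSO arrays. All SC1 values were far below every DMSO value, and the log2 fold change was -1.39 (SE 0.0442, limma adjusted p = 1.61e-05). The other probes averaged 7.51 ± 0.43 and 3.54 ± 0.18 with SC1, against 20.0 ± 1.23 and 8.92 ± 0.19 with DMSO (SD, n = 3 each), with log2 fold changes of -1.41 and -1.33. On each probe every SC1 array lay below every DMSO array. Only 238 of the 25439 genes had a log2 fold change at or below that of Tdgf1. Mouse Tdgf1 has pseudogene copies, and whether their transcripts reach these probes was not tested.

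**Figure D2:**
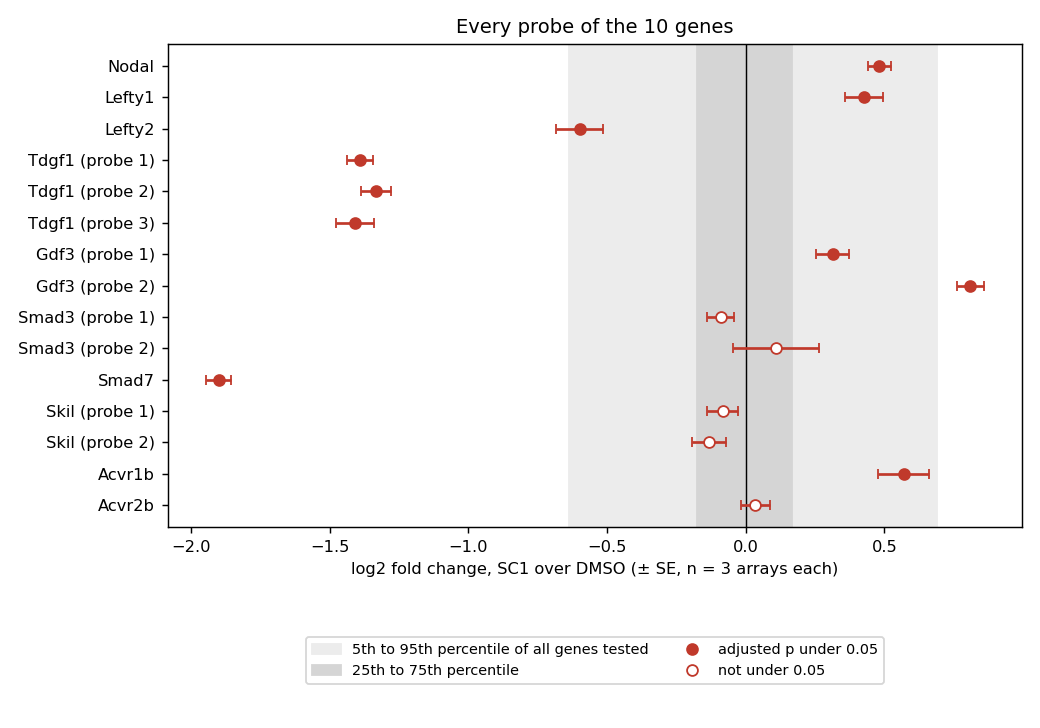
Log2 fold change (± SE, n = 3 arrays per group) of each of the 15 probes, filled where the adjusted p over all probes was under 0.05, with the spread of all 25439 genes in grey. The Tdgf1 and Smad7 probes lie left of the 5th percentile of all genes (-0.64), and the Smad3, Skil and Acvr2b probes lie within the middle band (-0.18 to 0.17).

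The ligand and its co-receptor thus moved in opposite directions. The ratio of Nodal to Tdgf1 within an array does not change when an array is scaled by 1 constant, and on the log2 scale it was 0.84, 0.85 and 0.90 with SC1, against -0.996, -1.07 and -0.97 with DMSO. This ratio was 3.66-fold higher on SC1 arrays, with an exact two-sided permutation p = 0.1, the smallest that 3 against 3 arrays allow, and 0.133 adjusted over the 4 such ratios computed. That p-value was fixed in advance, as Nodal was higher and Tdgf1 lower on every SC1 array than on every DMSO array.

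The RefSeq promoter table holds 5 of the 10 genes, and the windows of Nodal, Tdgf1 and Acvr1b are shown because these are the genes among them whose RNA changed. Each window runs 5′ to 3′ on the strand of the gene from 250 bases before to 50 after a transcript start in build GRCm38.p6, and lies at chr10:61417722-61418021 on the plus strand, chr9:110946109-110946408 on the minus strand and chr15:101173822-101174121 on the plus strand. Capitals mark the SMAD box CAGAC and the SMAD-binding motif GGCGC, searched on both strands, with overlapping matches kept.
Nodal: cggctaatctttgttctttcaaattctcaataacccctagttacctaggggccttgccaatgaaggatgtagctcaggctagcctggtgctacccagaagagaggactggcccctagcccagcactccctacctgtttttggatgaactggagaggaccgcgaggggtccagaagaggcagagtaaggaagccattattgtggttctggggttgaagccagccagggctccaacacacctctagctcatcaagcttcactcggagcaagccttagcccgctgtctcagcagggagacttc
Tdgf1: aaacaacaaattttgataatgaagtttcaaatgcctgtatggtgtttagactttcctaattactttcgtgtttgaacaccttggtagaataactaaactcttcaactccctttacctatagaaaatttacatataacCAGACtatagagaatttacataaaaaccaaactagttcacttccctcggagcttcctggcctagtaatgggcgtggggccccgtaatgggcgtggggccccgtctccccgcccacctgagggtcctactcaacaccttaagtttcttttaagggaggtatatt
Acvr1b: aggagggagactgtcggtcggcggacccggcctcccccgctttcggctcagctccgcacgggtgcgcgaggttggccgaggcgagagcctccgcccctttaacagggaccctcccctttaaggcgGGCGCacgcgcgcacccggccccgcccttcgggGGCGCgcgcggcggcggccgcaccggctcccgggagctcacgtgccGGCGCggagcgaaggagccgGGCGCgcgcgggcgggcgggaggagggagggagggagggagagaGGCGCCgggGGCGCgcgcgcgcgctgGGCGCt

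The box CAGAC occurred in 49.6% of 32851 RefSeq promoters and in 2 of the 5 windows, those of Tdgf1 and Acvr2b. In Tdgf1 it lay at positions 138 to 142 of the window, counted from 1 at its 5′ end. The motif GGCGC was found in 36.9% of promoters and in 2 of 5, those of Acvr1b and Acvr2b, whose windows were 79.7% and 73.3% G or C, against 54% in Nodal and 41.7% in Tdgf1. The FOXH1 motifs AATCCACA and AATACACA were found in 1.82% of promoters and in none of the 5. The shorter form AGAC was found in all 5 and in 88.0% of promoters. These are matches of letters in a short window only.

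The antagonist genes Lefty1 and Lefty2 moved apart. Both encode secreted inhibitors that bind Nodal or its co-receptor, and they are close paralogs on chromosome 1. Lefty1 was at 28.1, 24.4 and 25.4 on the SC1 arrays, against 19.5, 18.4 and 19.9 on the DMSO arrays. All SC1 arrays lay above all DMSO arrays, a log2 fold change of 0.43 (SE 0.0665, limma adjusted p = 0.00413). Lefty2 was at 5.52, 4.56 and 5.42 with SC1, against 7.96, 7.94 and 7.51 with DMSO. Here every SC1 array lay below every DMSO array, a log2 fold change of -0.60 (SE 0.0831, limma adjusted p = 0.00268). The SC1 arrays differed more among themselves for these genes (SD 1.90 and 0.53) than the DMSO arrays did (SD 0.75 and 0.26).

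The log2 ratio of Lefty1 to Lefty2 was 2.35, 2.42 and 2.23 with SC1, against 1.29, 1.22 and 1.41 with DMSO. The ratio, which scaling an array by 1 constant leaves as it is, was thus 2.04-fold higher with SC1 (exact two-sided permutation p = 0.1, adjusted 0.133). That p-value was likewise fixed in advance, as Lefty1 was higher and Lefty2 lower on every SC1 array than on every DMSO array. The ratio of Lefty1 to Nodal was 0.27, 0.08 and 0.14 on the log2 scale with SC1, against 0.26, 0.17 and 0.23 with DMSO, and the groups overlapped (exact permutation p = 0.5). Lefty1 no longer passed with spike-in scaling (log2 fold change 0.39, limma adjusted p = 0.0804), whereas Lefty2 did (limma adjusted p = 0.00265). Each Lefty gene had a single probe, and whether either probe also binds the RNA of the other gene was not tested.

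The receptor genes differed from each other. Acvr1b encodes ALK4, the type I receptor kinase used by Nodal and activin. Its level was 0.133, 0.154 and 0.144 with SC1, against 0.108, 0.0950 and 0.0884 with DMSO. The probe was dim, with a processed signal of 63.7 to 70.7 on SC1 arrays and 47.2 to 58 on DMSO arrays, but was well above background on all 6. It rose, with a log2 fold change of 0.57 (SE 0.0911, limma adjusted p = 0.00454), and by 0.27 under normexp correction followed by quantile normalization. With the row of the array on the slide as a block it no longer passed (limma adjusted p = 0.0573).

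Acvr2b encodes ActRIIB, a type II receptor kinase of the same complex. Its level was 44.5, 46.9 and 46.9 with SC1, against 44.5, 47.0 and 43.4 with DMSO. The groups overlapped, and the log2 fold change was 0.04 (95% interval -0.09 to 0.16, limma adjusted p = 0.625). The interval does not reach a change of the size seen for Acvr1b. Under normexp correction with quantile normalization Acvr2b had a log2 fold change of 0.14 and passed (limma adjusted p = 0.039). Before scaling, its processed signal was 20784.8 to 21934.3 with SC1 and 23189.7 to 25034.3 with DMSO, and thus lower on every SC1 array, as the 75th percentile was.

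Smad3, which encodes a signal-transducing SMAD, did not pass. Its brighter probe was at 2.81, 2.69 and 2.82 with SC1, against 2.82, 3.00 and 3.03 with DMSO. The SC1 arrays were all lower, although the closest values of the groups were both 2.82, and the log2 fold change was -0.09 (95% interval -0.20 to 0.03, limma adjusted p = 0.191). Its second probe was dim, at 0.0530 ± 0.0064 with SC1 and 0.0495 ± 0.0088 with DMSO (SD, n = 3 each), and overlapped between groups.

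The inhibitory SMAD gene Smad7, whose product blocks activated type I receptors of the TGF-beta family, changed by the widest margin of the 10. Its level was 1.441, 1.397 and 1.496 on the SC1 arrays, against 5.458, 5.358 and 5.354 on the DMSO arrays. The spread within each group was small beside the gap, and the log2 fold change was -1.90 (SE 0.0430, limma adjusted p = 7.25e-06). It ranked 109 from the lowest among the 25439 genes. Smad7 and Tdgf1 were 2 of the 10 genes that passed with a change of at least 2-fold, both lower. Over all genes 4.16% did so in either direction and 1.91% did so lower.

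Skil encodes SnoN, a nuclear corepressor that binds SMADs and is known to be degraded upon pathway activation. Its main probe was spotted 10 times on every array, which allowed the spread within an array to be seen. The mean level was 5.48, 4.99 and 5.38 with SC1, against 5.40, 5.65 and 5.74 with DMSO. The groups overlapped, and the log2 fold change was -0.08 (95% interval -0.22 to 0.05, limma adjusted p = 0.28). The SD of log2 signal over the 8 to 10 spots that were not outliers was 0.039 to 0.075 within an array, and the SD between array means was 0.073 for SC1 and 0.046 for DMSO. The former is a spread of single spots and the latter of means over 8 to 10 spots, so they are not like measures. A second, dimmer Skil probe was at 0.396, 0.421 and 0.381 with SC1, against 0.429, 0.423 and 0.463 with DMSO, and did not pass either (limma adjusted p = 0.147 over all probes).

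**Figure D3:**
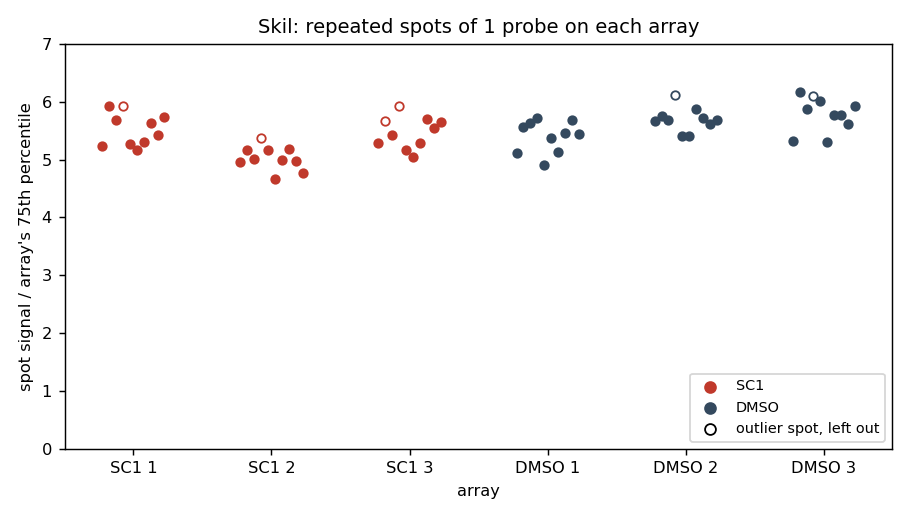
Signal of each repeated spot of the main Skil probe as a multiple of the array's 75th percentile, by array, with open points for spots left out as outliers. The spots of the SC1 and DMSO arrays cover overlapping ranges, from 4.66 to 5.93 with SC1 and from 4.91 to 6.17 with DMSO among spots used.

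All 6 arrays came from 1 slide and 1 scan, but not from the same places on it. Slide row 1 held the 3 DMSO arrays and SC1 replicate 1, and slide row 2 held the other SC1 arrays. Within slide row 1 the log2 difference of the single SC1 array from the DMSO mean was 0.49 for Nodal, 0.54 for Lefty1, 0.38 for Gdf3 and 0.46 for Acvr1b. It was -0.50 for Lefty2, -1.36 for Tdgf1 and -1.90 for Smad7, so each of the 7 genes kept its direction there. Acvr2b turned to -0.02. The array columns 1 and 2 each held 1 SC1 and 1 DMSO array, and in both the 7 genes had the direction given above, with Gdf3 at 0.17 and 0.38 and Lefty1 at 0.32 and 0.46. When the slide column entered the fit as a block, which leaves few degrees of freedom, Lefty1 (limma adjusted p = 0.0677) and Gdf3 (limma adjusted p = 0.134) no longer passed.

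**Figure D4:**
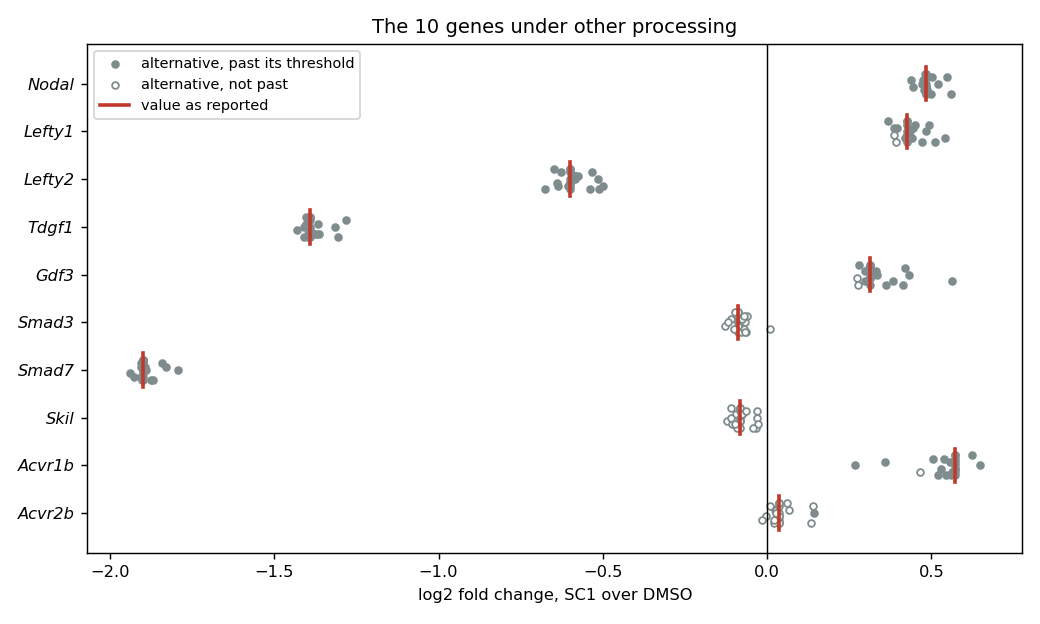
Log2 fold change of the 10 genes as reported (red line) and under 23 processing alternatives (points, filled where the gene passed that alternative's threshold). The points of the 7 genes that passed stay on one side of 0, while those of Smad3 and Acvr2b reach it.

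Other genes of the pathway, chosen for their roles, also moved in both directions. Of 44 such genes 40 were tested, of which 14 rose, 9 fell and 17 did not pass, while over all genes 18.1% were higher, 20.2% lower and 38.3% passed in all. Their median log2 fold change was 0.02, against -0.0052 for all genes, and its median size 0.26 against 0.17.

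Among 9 tested genes of other ligands and of the proteases that process them, 1 rose, 4 fell and 4 did not pass (18.1% higher and 20.2% lower over all genes). Inhbb, which encodes the subunit of activin B, was at 1.29, 1.30 and 1.22 with SC1, against 5.31, 5.11 and 5.57 with DMSO, a log2 fold change of -2.07 (SE 0.0515, limma adjusted p = 9.65e-06). All SC1 levels lay far below the lowest DMSO level. Gdf1, a partner ligand of Nodal that is encoded on a transcript shared with Cers1, fell by 0.57 on the log2 scale on its brighter probe, while a much dimmer probe had a log2 fold change of 0.04. The mean of both Gdf1 probes, -0.27, did not pass (limma adjusted p = 0.113). Tgfb1, which encodes TGF-beta 1, fell by 0.46 on a dim probe. With normexp before 75th percentile scaling it was at -0.10 and did not pass (limma adjusted p = 0.139), nor did it with the slide column as block (limma adjusted p = 0.0528).

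Among 6 tested receptors and co-receptors 3 rose, none fell and 3 did not pass, beside 18.1% higher and 20.2% lower over all genes. Cfc1, which encodes Cryptic, the other EGF-CFC co-receptor of Nodal, was at 0.239, 0.237 and 0.255 with SC1, against 0.0485, 0.0513 and 0.0597 with DMSO. It rose by 2.20 on the log2 scale (SE 0.0855, limma adjusted p = 2.96e-05), and by 1.14 with normexp and quantile normalization. Cfc1 and Tdgf1, genes of the same family, thus changed in opposite directions. Tgfbr3, which encodes betaglycan, averaged 0.7055 ± 0.043 with SC1 and 0.276 ± 0.014 with DMSO (SD, n = 3 each) and rose by 1.35 on the log2 scale (SE 0.0630). The type II receptor gene Acvr2a, at -0.03 on the log2 scale, did not pass.

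Among 8 SMADs and nuclear partners 2 rose, 2 fell and 4 did not pass, and 38.3% of all genes passed. Foxh1, the DNA-binding partner of SMAD2, was at 3.48, 3.54 and 3.46 with SC1, against 3.11, 3.18 and 3.07 with DMSO, and rose by 0.16 on the log2 scale (limma adjusted p = 0.0201). That call was lost when any one of DMSO replicate 1, DMSO replicate 3 or SC1 replicates 1, 2 and 3 was left out, with limma adjusted p values from 0.0523 to 0.0697, with the replicate block (limma adjusted p = 0.0629), and with spike-in scaling (limma adjusted p = 0.698). It was also lost with the slide column (limma adjusted p = 0.205) or the slide row (limma adjusted p = 0.139) as block. Smad2 had a log2 fold change of -0.15 (limma adjusted p = 0.129), and Smad4, the common partner, 0.03 on its brighter probe and -0.13 on another. Smad2 and Smad4 did not pass, although Smad2 did with an intensity trend and robust prior (limma adjusted p = 0.0374).

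**Figure D5:**
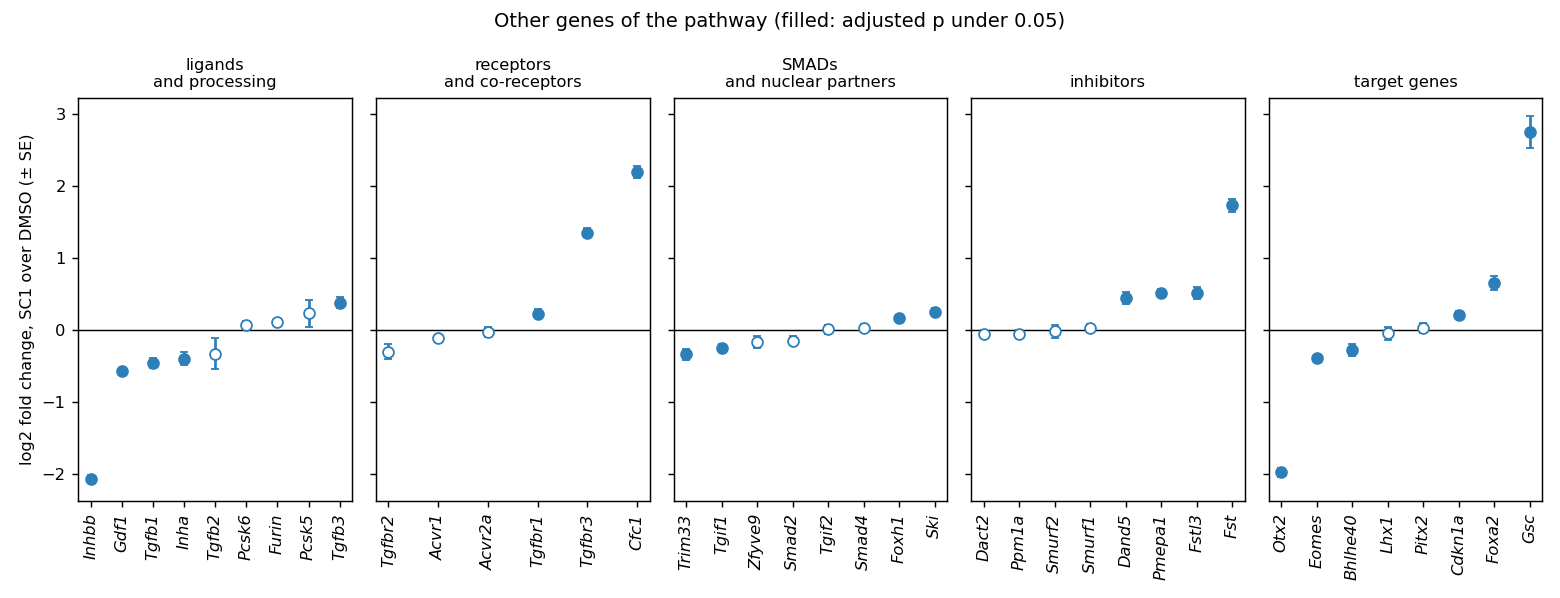
Log2 fold change, SC1 over DMSO (± SE), of 39 of the 40 other pathway genes tested, in 5 groups by role and sorted within each group, filled where the adjusted p was under 0.05. Inhbb and Otx2 lie near -2, and Cfc1, Fst and Gsc lie between 1.74 and 2.76.

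Among 8 tested inhibitors of the pathway 4 rose, none fell and 4 did not pass, beside 18.1% higher and 20.2% lower over all genes. Fst, which encodes the activin-binding protein follistatin, was at 0.803, 0.959 and 0.925 with SC1, against 0.243, 0.279 and 0.284 with DMSO, and rose by 1.74 on the log2 scale (SE 0.0934, limma adjusted p = 8.27e-05). Fstl3, a follistatin-like gene, rose by 0.52, and Pmepa1, which encodes a membrane protein that sequesters receptor-activated SMADs, by 0.51 and 0.54 on its 2 probes. When the slide column was a block, Pmepa1 no longer passed (limma adjusted p = 0.0635). The extracellular inhibitor gene Cer1 was not well above background on any array.

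Among 9 tested target genes 4 rose, 3 fell and 2 did not pass, beside 18.1% higher and 20.2% lower over all genes. Gsc, a homeobox gene of the organizer that is also in the mesendoderm marker list, was at 0.404, 0.381 and 0.390 with SC1, against 0.0797, 0.0426 and 0.0573 with DMSO. It rose by 2.76 on the log2 scale (SE 0.218, limma adjusted p = 0.000313), and by 1.54 with normexp and quantile normalization. Otx2, a transcription factor gene of the postimplantation epiblast, was at 2.10, 2.42 and 2.33 with SC1, against 8.78, 9.27 and 8.99 with DMSO, a log2 fold change of -1.98 (SE 0.0630, limma adjusted p = 1.61e-05). Foxa2, an endoderm transcription factor gene, rose by 0.66 on its brighter probe. Its dimmer probe was well above background on no DMSO array and was kept only through the 3 SC1 arrays. That probe did not pass (limma adjusted p = 0.0777 over all probes). The change of the brighter probe was 0.31 under normexp correction with quantile normalization, and it did not pass with the slide column as block (limma adjusted p = 0.0924).

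The embryonic stem cell markers were mixed as well: of 8 genes 2 rose and 2 fell, 4 in all, beside 38.3% of all genes. Tfcp2l1 rose by 1.10 and Sall4 by 0.25 on the log2 scale, and Sox2 and Zfp42 had log2 fold changes of -0.28 and -0.25. Pou5f1, Nanog, Dppa5a and Esrrb, with log2 fold changes of 0.12, 0.21, 0.13 and -0.02, did not pass.

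Likeness to Nodal and Lefty1 was measured as the Euclidean distance between the 6 log2 values of 2 genes, each less its DMSO mean, over 14929 other protein-coding genes. Nearest to Nodal were Efna4 (distance 0.0575), Slc47a1 (0.0586) and Cnn1 (0.0635). Nearest to Lefty1 were Epc1 (0.0429), Kit (0.0644) and Trim13 (0.0741). The 6 arrays form 2 groups, and these genes had log2 fold changes of 0.41 to 0.49, near those of Nodal and Lefty1.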

How the data were processed

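Total RNA of 3 SC1 and 3 DMSO samples was measured on 6 single-colour Cy3 arrays. Per the submitters' processing notes, Agilent Feature Extraction 10.7 quantified the spots. Per the file headers, the deposited intensity is a processed signal, corrected for background and spatial trend, beside median spot and background intensities and 0 or 1 flags. The authors also deposited log2 values whose normalization is not given in the sources used here. Each array of that matrix had a median of 5.17, and its values differed from quantile-normalized log2 signals by a median of 0.039 to 0.040.

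Control spots and outlier spots (137 to 201 per array) were left out. The log2 processed signal was averaged over the spots of a probe, and the 75th percentile of the array was subtracted. Probes well above background on all 3 arrays of a group were kept (35321), and the brightest kept probe stood for its gene. A RefSeq table (GRCm38.p6) named 27235 probes by accession, and the other probes kept their accession as the gene name. The array design is on mm9, so coordinates are given only for the promoter windows, from the GRCm38.p6 table. The fit of SC1 against DMSO used lmFit and eBayes of limma 3.58.1 (R 4.3.3, two-sided, threshold 0.05), and was tested on simulated data with 200 of 25416 genes changed. It recovered 9 of 50 changes of 1.25-fold, 29 of 50 of 1.5-fold, 40 of 50 of 2-fold and 49 of 50 of 4-fold, with 8 false calls. Small changes were thus often missed there. Alternatives changed the scaling, background correction, filter, choice of probe, blocks and threshold, used the authors' log2 matrix, or left out 1 array. The number of arrays limits the precision.

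Named were all 10 genes with every probe, the 12 largest changes that passed among other pathway genes, Smad2, Smad4, Foxh1, Acvr2a and Inhbb, the stem cell markers, markers not above background, and 3 genes nearest to Nodal and to Lefty1. Of the genes this rule selects, 1 is counted but not reported here. The genes, the lists and the 4 ratios were chosen with earlier results of these data known. The replicate numbers are not said to mark shared cultures, so they were not treated as pairs. Same-numbered samples had correlations of deviations from the group means of -0.0359 to -0.0134, and differently numbered ones of -0.0595 to 0.0792. Figures used Python 3.11.15 and matplotlib 3.10.9.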

Additional observations from a re-analysis of the deposited data

How the results depend on the processing

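Each result was recomputed under 23 alternatives, of which the slide row as a block was chosen after the data were seen. Over all alternatives Nodal, Lefty2, Tdgf1 and Smad7 passed in the direction reported. With spike-in scaling (8 control probes) 5068 genes changed, 19.9% of those tested (2288 higher, 2780 lower). Of the 10 genes 2 were then higher and 3 lower, and of the other pathway genes 8 were higher and 6 lower. With the slide column as a block 3324 changed, 13.1% of those tested (1686 higher, 1638 lower). Of the 10 genes 2 were higher and 3 lower there, and of the other pathway genes 7 were higher and 4 lower. With the slide row as a block 5545 changed (2690 higher, 2855 lower). At an adjusted p under 0.01 there were 5792, 22.8% of those tested (2790 higher, 3002 lower), with 9 other pathway genes higher, and with normexp and 75th percentile scaling 6977 genes rose. The share that rose among changed genes was 57.9% under that last alternative, against 47.3% as reported. Leaving out 1 array gave 7747 to 8390 changed genes, and each time 4 of the 10 genes rose and 3 fell. With the replicate block 7910 genes changed, and the calls of the 10 genes were as reported. Acvr2b was -0.0049 with spike-in scaling and -0.016 with the slide row, and passed with normexp and quantile normalization (0.14, limma adjusted p = 0.039). Smad3 was 0.0098 with the mean of its probes, and its second probe -0.083 with the slide row and -0.028 to 0.232 when 1 array was left out. Smad4 was -0.0058 with spike-in scaling, -0.050 with the mean of its probes, and -0.174 to 0.059 when 1 array was left out, and below 0 without any one SC1 array, where its other probe stood for the gene. Acvr2a was 0.0099 with the slide row and -0.073 to 0.018 when 1 array was left out, above 0 without SC1 replicate 2. With spike-in scaling the median shift of the log2 fold change over all genes was -0.0399. The probes averaged for Smad3 differed in sign, as did those averaged for Smad4. Beyond these points and the switch of Smad4 probes, the cause was not tested. With normexp and quantile normalization the dim probes of Acvr1b and Cfc1 had log2 fold changes of 0.27 and 1.14, against 0.57 and 2.20 as reported.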
